A study of Homo sapiens with 11 samples.

Results

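Secreted inflammatory signals of cultured mammary epithelial cells are described here through 10 genes: the cytokines IL6 and LIF, the CXC chemokines CXCL8, CXCL1, CXCL2 and CXCL3, the interleukin-1 cytokines IL1A and IL1B, and the colony-stimulating factors CSF2 and CSF3. They were taken by symbol from a table of 40460 genes, and all 10 were present. Each passed the filter on low values that left 17945 genes for testing, a deposited log2 value of at least 3.32 in at least 2 libraries, and each exceeded that value in every library. Total RNA depleted of ribosomal RNA was sequenced from hTert-HME1, a line of human mammary epithelial cells made immortal by telomerase, at passage 6. Cells received the BRCA2 siRNA labelled BRCA2-1 or the control siRNA labelled control-2, and grew in mammary epithelial growth medium lacking EGF or in the complete medium with EGF. There were 3 libraries of BRCA2 siRNA without EGF (replicates A, B and C), 2 of control siRNA without EGF (A and C), 3 of BRCA2 siRNA with EGF and 3 of control siRNA with EGF (A, B and C each). All groups therefore share the cell line, the transfection and the passage, and 1 siRNA stood for each target. The labels call the letters biological replicates without saying how the cultures were kept apart, so p-values measure the spread between these libraries.

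These genes are textbook targets of NF-kB, a family of dimeric transcription factors held in the cytoplasm by IkB proteins until IkB kinases mark the inhibitors for destruction. Their products call and activate neutrophils, macrophages and T cells, and IL1A and IL1B can drive further NF-kB activity in the cell that made them through the receptor IL1R1, a loop that the secreted antagonist IL1RN blocks. Their mRNAs are typically short-lived, since AU-rich elements in the 3′ untranslated region (UTR) recruit decay factors such as ZFP36. EGF, through its receptor and the MAP kinases, supports growth of mammary epithelial cells and also feeds AP-1, another factor family that acts on many of these promoters.

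The promoters below show what the members share in sequence. They are the 150 bases before the RefSeq start in GRCh38.p14, 5′ to 3′ on the coding strand, with capitals for matches to the kappaB letters GGNNNTTCC or the AP-1 letters TGANTCA, searched on both strands. For IL1A the window of the second RefSeq start is shown.
IL6 promoter, chr7:22727050-22727199, plus strand: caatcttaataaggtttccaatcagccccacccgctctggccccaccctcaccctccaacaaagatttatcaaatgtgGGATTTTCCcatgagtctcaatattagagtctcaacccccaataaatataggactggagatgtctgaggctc
CXCL8 promoter, chr4:73740419-73740568, plus strand: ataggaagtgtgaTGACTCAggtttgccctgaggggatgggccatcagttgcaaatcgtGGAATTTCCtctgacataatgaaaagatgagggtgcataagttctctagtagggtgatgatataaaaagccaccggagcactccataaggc
CXCL1 promoter, chr4:73869243-73869392, plus strand: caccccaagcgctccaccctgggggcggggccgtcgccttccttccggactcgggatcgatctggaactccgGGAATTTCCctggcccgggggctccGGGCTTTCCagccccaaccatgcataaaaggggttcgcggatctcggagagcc
CXCL2 promoter, chr4:74099196-74099345, minus strand: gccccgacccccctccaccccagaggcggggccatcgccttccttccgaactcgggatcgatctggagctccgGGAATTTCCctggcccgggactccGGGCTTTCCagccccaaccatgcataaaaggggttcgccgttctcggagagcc
CXCL3 promoter, chr4:74038690-74038839, minus strand: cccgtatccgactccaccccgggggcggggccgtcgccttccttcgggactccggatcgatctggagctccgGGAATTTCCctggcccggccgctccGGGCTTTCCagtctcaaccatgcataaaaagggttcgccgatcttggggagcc
CSF2 promoter, chr5:132073639-132073788, plus strand: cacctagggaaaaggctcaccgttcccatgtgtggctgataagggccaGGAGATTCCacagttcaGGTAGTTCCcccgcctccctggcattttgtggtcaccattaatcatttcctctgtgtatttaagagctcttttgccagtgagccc
IL1A promoter, chr2:112784401-112784550, minus strand: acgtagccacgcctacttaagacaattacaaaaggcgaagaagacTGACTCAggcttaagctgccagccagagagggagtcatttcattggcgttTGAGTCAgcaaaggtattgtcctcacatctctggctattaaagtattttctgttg

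RefSeq promoter windows of 300 bases, 250 before and 50 after the start, were found for 8 of the 10 members, all except CSF3 and LIF. The kappaB letters occurred in 6 of these 8 genes (IL6, CXCL8, CXCL1, CXCL2, CXCL3 and CSF2), against 20.1% of all 35116 windows. In IL6 the match GGATTTTCC began at position -72 relative to the start, and in CXCL8 the match GGAATTTCC began at -91. CXCL1, CXCL2 and CXCL3 each carried the same pair of matches, GGAATTTCC and GGGCTTTCC, the second at position -53 in all of them. The AP-1 letters occurred in CXCL8 and IL1A, 2 of 8 genes, against 7.71% of all windows. IL1B held neither set of letters in this window. A match of letters is a description and does not show that a factor bound there.

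CXCL1, CXCL2 and CXCL3 are near copies of each other, which bears on how their values can be read. The coding stretch below holds, in capitals, the codons for glutamate, leucine and arginine ahead of the first cysteine, the ELR motif that marks neutrophil-attracting CXC chemokines. Bases are counted from the A of the start codon in GENCODE transcripts of GRCh38.
CXCL1 coding bases 94 to 153: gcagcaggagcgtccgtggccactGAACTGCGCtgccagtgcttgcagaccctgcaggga
CXCL2 coding bases 94 to 153: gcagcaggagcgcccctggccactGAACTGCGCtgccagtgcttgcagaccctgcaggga
CXCL3 coding bases 94 to 153: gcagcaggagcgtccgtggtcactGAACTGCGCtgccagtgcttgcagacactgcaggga
CXCL8 coding bases 67 to 126: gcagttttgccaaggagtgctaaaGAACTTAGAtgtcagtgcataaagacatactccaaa

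Over this stretch of 60 bases CXCL1 shared 58 bases with CXCL2 and 58 with CXCL3, whereas each of these genes shared 28 with CXCL8. Over the whole coding sequence identity was 93.5% between CXCL1 and CXCL2, 90.7% between CXCL1 and CXCL3 and 94.4% between CXCL2 and CXCL3. Of all runs of 50 bases in the CXCL1 transcript, 5.73% recur in CXCL2, and of those in CXCL2, 4.62% recur in CXCL3. The counting method is not given in the sources used here, so the split of reads between these genes is uncertain, and their values should be read with that limit. CXCL8 shares no run of 50 bases with any of them.

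All 10 members carried the pentamer ATTTA in the 3′ UTR at a density above the median of 18845 genes. Their median was 9.02 copies per 1000 bases, against 1.34 over all these genes. The nonamer TTATTTATT, the core of a classical AU-rich element, occurred in 7 members, all except IL6, IL1A and CSF3, and in 7.18% of all genes. Stretches of 30 bases are shown for a colony-stimulating factor and a pair of chemokines, with each ATTTA in capitals, from GENCODE transcripts of GRCh38.
CSF2 3′ UTR: ttttaaaatATTTATTTATTTATTTATTTA
CXCL2 3′ UTR: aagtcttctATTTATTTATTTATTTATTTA
CXCL8 3′ UTR: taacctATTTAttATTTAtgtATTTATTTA

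CSF2 held 8 pentamers in a UTR of 318 bases, CXCL2 held 10 in 721 bases and CXCL8 held 9 in 1252 bases.

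No counts accompany the deposited log2 values, so the depth of the libraries is unknown, and levels are compared between groups for 1 gene and never between genes. BRCA2 itself was no lower where the label says BRCA2 siRNA: the difference from control was 0.05 ± 0.12 on the log2 scale with EGF (adjusted p = 0.999) and 0.74 ± 0.13 without EGF (adjusted p = 0.00397, limma). Groups are therefore named by their labels alone. All 12 basal epithelial markers passed the filter on low values. The luminal markers KRT8, KRT18, GATA3, ESR1, FOXA1 and MUC1 also passed it, while KRT19, EPCAM, PGR, ELF5 and KIT stayed below it in every library. Of 12 leukocyte markers 10 were in the table and 8 of them, PTPRC among them, were below the filter value in every library. In bulk RNA, fewer cells of a kind and less RNA per cell cannot be told apart.

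With EGF, most members were high in replicate B and low in replicate C under both siRNAs, and without EGF the libraries of a group lay closer together. In the deposited values the mean of the replicate A libraries equals that of the B and C libraries in every gene, so where an A library lies relative to B and C depends on that centring, whereas differences between libraries of the same letter and between B and C do not. The lowest of the 4 group means belonged to control siRNA without EGF for 9 of the 10 genes, all except CXCL2, and both means with EGF exceeded both means without EGF for all except CSF2. The median standard deviation of the members was 0.26 in BRCA2 siRNA without EGF, 0.20 in control siRNA without EGF, 0.75 in BRCA2 siRNA with EGF and 0.90 in control siRNA with EGF. Over all genes tested the median was 0.12 in BRCA2 siRNA without EGF, 0.08 in control siRNA without EGF, 0.17 in BRCA2 siRNA with EGF and 0.19 in control siRNA with EGF. With EGF, 7 of the 10 members in BRCA2 siRNA and 9 in control siRNA exceeded the 90th percentile of the spread of all genes. Without EGF 4 members in BRCA2 siRNA and 2 in control siRNA also did.

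**Figure D1:**
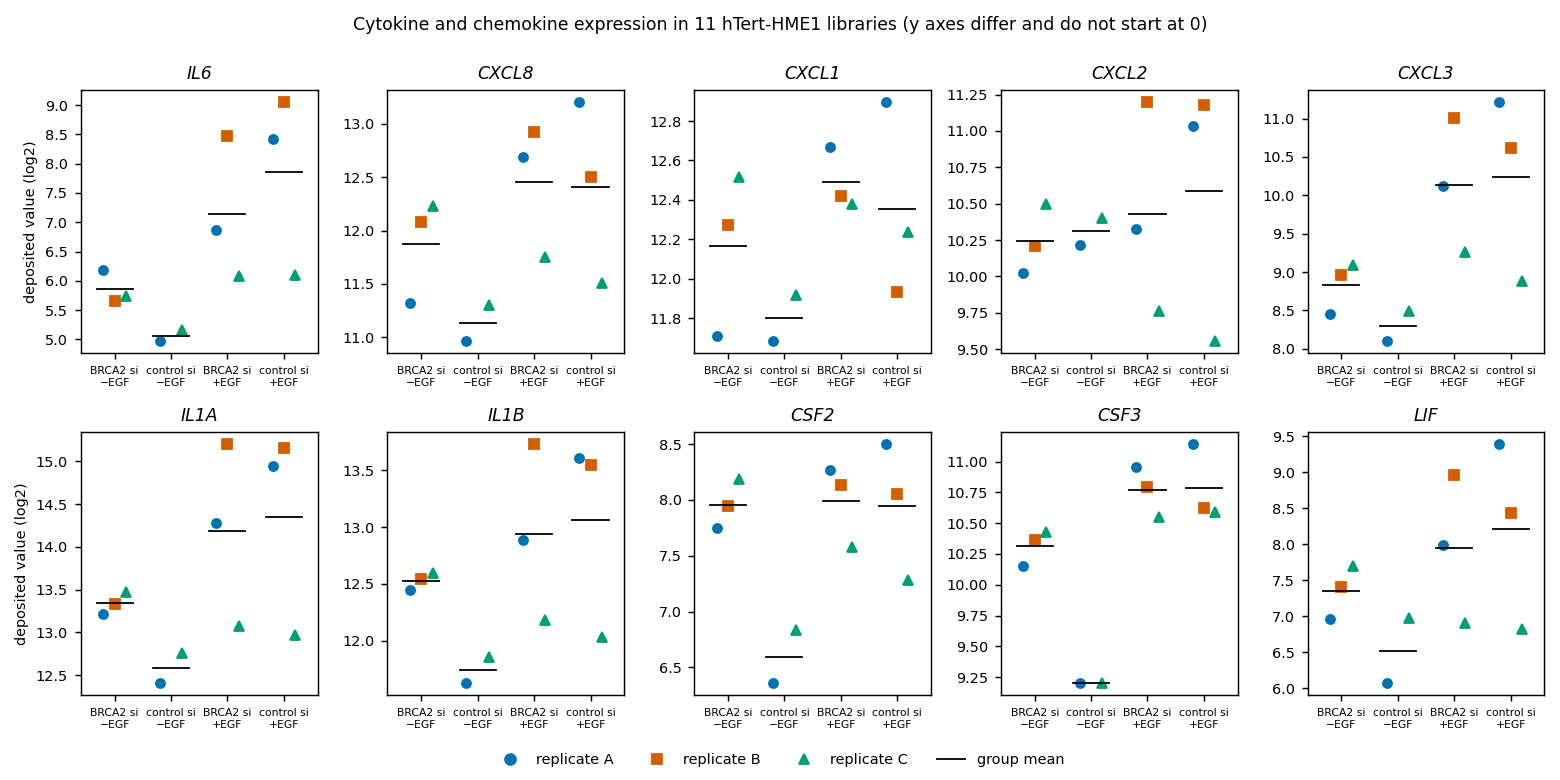
Deposited log2 values of the 10 genes (vertical axes, a separate range for each gene and not starting at 0) in 4 groups (horizontal axis). Each point is 1 library, its shape and colour give the replicate letter, and the black line is the group mean. With EGF, IL1A sits at 15.20 and 15.16 in the replicate B libraries of BRCA2 and control siRNA and at 13.08 and 12.97 in their replicate C libraries.

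CSF3, which drives neutrophil production, fell without EGF under control siRNA, and under BRCA2 siRNA its smaller difference passed narrowly. It was 10.16, 10.37 and 10.43 in BRCA2 siRNA without EGF, 9.20 and 9.20 in control siRNA without EGF, 10.95, 10.79 and 10.55 in BRCA2 siRNA with EGF, and 11.14, 10.63 and 10.59 in control siRNA with EGF (replicates A, B and C, where control without EGF has A and C). Every library without EGF lay below every library with EGF, which held for no other of these genes. With BRCA2 siRNA the difference for EGF withdrawal (without minus with EGF) was -0.45 ± 0.15 on the log2 scale (limma, n = 3 and 3, adjusted p = 0.0462). This call passed under 5 of 16 alternatives, with adjusted p from 0.0117 to 0.296, and of the 6 fits that each left out 1 library it passed only without BRCA2 siRNA C with EGF. With control siRNA it was -1.58 ± 0.17, or 3.00-fold lower (n = 2 and 3, adjusted p = 3.89e-05). CSF2, known as GM-CSF, was 7.74, 7.94 and 8.19 in BRCA2 siRNA without EGF, 6.36 and 6.83 in control siRNA without EGF, 8.26, 8.14 and 7.58 in BRCA2 siRNA with EGF, and 8.50, 8.06 and 7.28 in control siRNA with EGF. Its control libraries without EGF were the lowest of all 11, whereas its BRCA2 siRNA libraries overlapped between media. The withdrawal difference of CSF2 was -0.04 ± 0.29 with BRCA2 siRNA (adjusted p = 0.932), and with control siRNA the gene fell, at -1.35 ± 0.32 (adjusted p = 0.00474).

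IL6, the cytokine of the acute-phase response, showed the widest range. Its values were 6.18, 5.66 and 5.75 in BRCA2 siRNA without EGF, 4.97 and 5.16 in control siRNA without EGF, 6.86, 8.46 and 6.09 in BRCA2 siRNA with EGF, and 8.43, 9.05 and 6.10 in control siRNA with EGF. With EGF the replicate C libraries of both siRNAs were far below replicate B, and the BRCA2 siRNA library C with EGF lay below the BRCA2 siRNA library A without it. The withdrawal difference of IL6 was -1.27 ± 0.70 with BRCA2 siRNA (adjusted p = 0.189), and with control siRNA IL6 fell 6.95-fold (-2.80 ± 0.78, adjusted p = 0.0113). LIF, a cytokine of the same gp130 receptor family, was 6.96, 7.40 and 7.70 in BRCA2 siRNA without EGF, 6.07 and 6.98 in control siRNA without EGF, 7.99, 8.97 and 6.90 in BRCA2 siRNA with EGF, and 9.39, 8.44 and 6.82 in control siRNA with EGF. The groups overlapped, since both C libraries with EGF were as low as libraries without it. The LIF differences, -0.60 ± 0.61 with BRCA2 siRNA (adjusted p = 0.487) and -1.69 ± 0.69 with control siRNA (adjusted p = 0.0587), did not pass the threshold of 0.05.

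IL1A, an alarmin active as a precursor and released from damaged epithelium, was 13.22, 13.34 and 13.47 in BRCA2 siRNA without EGF, 12.41 and 12.76 in control siRNA without EGF, 14.27, 15.20 and 13.08 in BRCA2 siRNA with EGF, and 14.94, 15.16 and 12.97 in control siRNA with EGF. IL1B, which inflammasomes process, was 12.45, 12.54 and 12.60 in BRCA2 siRNA without EGF, 11.62 and 11.86 in control siRNA without EGF, 12.89, 13.73 and 12.19 in BRCA2 siRNA with EGF, and 13.61, 13.54 and 12.04 in control siRNA with EGF. For both genes the control libraries without EGF were below all control libraries with EGF, but the BRCA2 siRNA library C with EGF fell below the 3 BRCA2 siRNA libraries without EGF. With BRCA2 siRNA the withdrawal differences were -0.84 ± 0.56 for IL1A (adjusted p = 0.281) and -0.41 ± 0.41 for IL1B (adjusted p = 0.482). With control siRNA both fell, IL1A by -1.77 ± 0.63 (3.42-fold lower, adjusted p = 0.0355) and IL1B by -1.32 ± 0.46 (2.50-fold lower, adjusted p = 0.0328). Each of these calls passed under 7 of 15 alternatives and in 1 of 5 fits that left out a library.

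Among the chemokines that attract neutrophils through CXCR1 and CXCR2, CXCL3 and CXCL8 fell without EGF under control siRNA. CXCL8 was 11.32, 12.08 and 12.23 in BRCA2 siRNA without EGF, 10.96 and 11.30 in control siRNA without EGF, 12.69, 12.93 and 11.75 in BRCA2 siRNA with EGF, and 13.20, 12.50 and 11.51 in control siRNA with EGF. CXCL3 was 8.45, 8.97 and 9.09 in BRCA2 siRNA without EGF, 8.10 and 8.49 in control siRNA without EGF, 10.13, 11.01 and 9.26 in BRCA2 siRNA with EGF, and 11.22, 10.61 and 8.88 in control siRNA with EGF. CXCL3 did not overlap between media under either siRNA, whereas CXCL8 overlapped under BRCA2 siRNA. With BRCA2 siRNA the withdrawal differences were -1.30 ± 0.54 for CXCL3 (adjusted p = 0.0937) and -0.58 ± 0.41 for CXCL8 (adjusted p = 0.308). With control siRNA CXCL3 changed by -1.94 ± 0.60 (adjusted p = 0.0193) and CXCL8 by -1.27 ± 0.46 (adjusted p = 0.0367).

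CXCL1 and CXCL2, whose promoters carry the same pair of kappaB matches as CXCL3, did not pass the test for withdrawal under either siRNA. CXCL1 was 11.71, 12.27 and 12.52 in BRCA2 siRNA without EGF, 11.68 and 11.92 in control siRNA without EGF, 12.67, 12.42 and 12.38 in BRCA2 siRNA with EGF, and 12.90, 11.93 and 12.24 in control siRNA with EGF. CXCL2 was 10.02, 10.21 and 10.50 in BRCA2 siRNA without EGF, 10.22 and 10.40 in control siRNA without EGF, 10.33, 11.20 and 9.77 in BRCA2 siRNA with EGF, and 11.03, 11.18 and 9.55 in control siRNA with EGF. CXCL2 overlapped between media in both siRNA groups, with its lowest values of all in the C libraries with EGF. With BRCA2 siRNA the differences were -0.32 ± 0.24 for CXCL1 (adjusted p = 0.327) and -0.19 ± 0.41 for CXCL2 (adjusted p = 0.758), and with control siRNA they were -0.56 ± 0.27 for CXCL1 (adjusted p = 0.102) and -0.28 ± 0.46 for CXCL2 (adjusted p = 0.636).

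Counted over the genes, withdrawal with BRCA2 siRNA lowered only CSF3, whose call passed under 5 of 16 alternatives, and 2 genes, CSF3 and CXCL3, had an unadjusted p under 0.05. Of all genes tested, 13.8% were lower and 13.4% higher in that comparison. The median difference was -0.51 for the 10 genes and 0.003 over all genes, and CSF3 and CXCL3 did not overlap between media, where 24.4% of all genes lay wholly below. Withdrawal with control siRNA lowered 7 of 10 (IL6, CXCL8, CXCL3, IL1A, IL1B, CSF2 and CSF3) and raised none, with 8 at an unadjusted p under 0.05, where 26.1% of all genes were lower and 24.7% higher. The median difference was -1.47 for the 10 genes and -0.004 over all genes. In 8 of the 10 genes both control libraries without EGF lay below all 3 with EGF, which held for 33.6% of all genes. All 10 differences were negative under each siRNA.

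**Figure D2:**
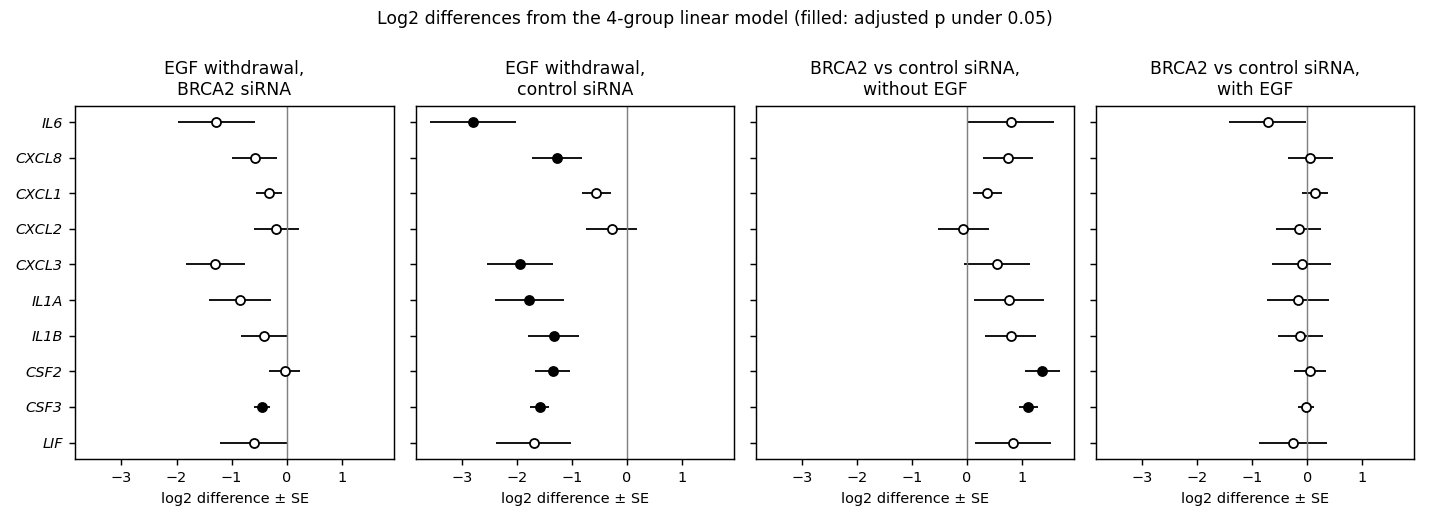
Log2 differences with standard errors (horizontal axis) for the 10 genes (rows) in 4 comparisons of the 4-group linear model on 11 libraries. Filled points passed an adjusted p of 0.05, which 1 gene did for EGF withdrawal with BRCA2 siRNA and 7 with control siRNA, 2 for BRCA2 against control siRNA without EGF and none with EGF.

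The withdrawal differences were not alike in the replicates. Within replicate A the median difference was -0.88 with BRCA2 siRNA and -2.19 with control siRNA, with all 10 genes negative under each siRNA. Within replicate B, which exists without EGF for BRCA2 siRNA only, the median was -1.09 and again all 10 were negative. Within replicate C it was 0.40 with BRCA2 siRNA, with 7 genes positive, and -0.27 with control siRNA, with 8 genes negative. IL6 under control siRNA differed by -3.46 within replicate A and -0.94 within replicate C, and LIF by -3.33 and 0.16. CSF3 kept its direction in every replicate, at -0.80, -0.43 and -0.13 in replicates A, B and C with BRCA2 siRNA and -1.94 and -1.39 in A and C with control siRNA. With both C libraries with EGF set aside, 7 members were called lower with BRCA2 siRNA, where 19.9% of all genes were, and 9 with control siRNA, where 29.9% of all genes were. These libraries were picked because these genes were low in them, so the counts describe that choice and are no test. Leaving out single control libraries with EGF in turn gave 3 genes called lower without A, 4 without B and 8 without C. Of all 17945 genes, 3714, 4287 and 5230 were then called lower. Without control A or C without EGF, 1 library remains in that group, and the members' median was -1.223 without A and -1.585 without C. Of the 7 calls, CSF3 passed under all 15 alternatives tried, CSF2 under 13, IL6 under 12, CXCL3 under 10, IL1A and IL1B under 7 each and CXCL8 under 6. In the 5 fits that each left out 1 library CSF3 passed in 5, CSF2 in 4, IL6 in 3 and CXCL3, CXCL8, IL1A and IL1B in 1 each.

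**Figure D3:**
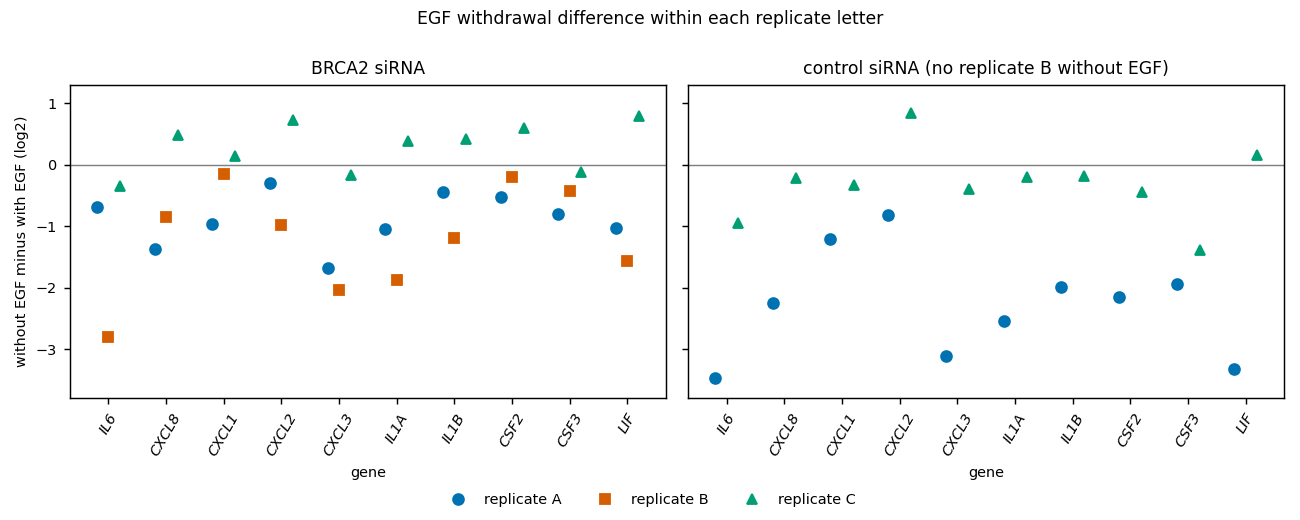
Difference in log2 value, without EGF minus with EGF, between libraries of the same replicate letter (vertical axis) for each gene, with BRCA2 siRNA on the left and control siRNA on the right. Replicates A and B lie below 0 for all 10 genes, and replicate C lies above 0 for 7 genes with BRCA2 siRNA and 2 with control siRNA.

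With EGF, replicate B held more mRNA of most of these genes than replicate C. A model with terms for siRNA and replicate letter in the 6 libraries with EGF put 8 of 10 genes higher in B than in C and none lower, where 16.8% of all genes were higher and 14.1% lower. This contrast was set up because the spread had already been seen, so its p-values describe these libraries and are no independent test. IL6 was higher in B by 2.66 ± 0.26 on the log2 scale, or 6.34-fold (limma, n = 2 and 2, adjusted p = 1.26e-05). IL1A was higher by 2.16 ± 0.15, LIF by 1.84 ± 0.30, CXCL3 by 1.74 ± 0.25, CXCL2 and IL1B by 1.53 ± 0.16 each, CXCL8 by 1.09 ± 0.16 and CSF2 by 0.67 ± 0.15. CSF3 and CXCL1 did not pass, at 0.14 ± 0.10 (adjusted p = 0.326) and -0.13 ± 0.13 (adjusted p = 0.467). The gap was seen under both siRNAs, with median differences of 1.49 for BRCA2 siRNA and 1.56 for control siRNA. In BRCA2 siRNA without EGF, the only group without EGF that has both letters, the differences of B minus C ran from -0.30 for LIF to -0.06 for IL1B, all 10 negative. In a model of all 11 libraries with group and letter, and with no filter on low values, this contrast called none of the 17945 or 40460 genes.

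The NF-kB subunits and the IkB and A20 group were, like most of the cytokines, higher in replicate B than in C with EGF. In that contrast 16.8% of all genes were higher and 14.1% lower. All 5 NF-kB subunits tested were higher in B, among them RELB by 1.36 ± 0.17, NFKB2 by 1.11 ± 0.14, NFKB1 by 0.67 ± 0.12 and RELA by 0.66 ± 0.12. All 8 genes of the IkB and A20 group, which are feedback inhibitors and partners of NF-kB, were also higher in B, with CYLD at 1.00 ± 0.11, NFKBIZ at 0.87 ± 0.09 and TNFAIP3 (A20) at 1.08 ± 0.12. Of 13 other NF-kB target genes 8 were higher and 1 was lower, led by BIRC3, an inhibitor of apoptosis (1.82 ± 0.16), the prostaglandin synthase PTGS2 (1.78 ± 0.19), the adhesion molecule ICAM1 (1.39 ± 0.20) and TRAF1 (2.82 ± 0.40). Of 13 other cytokines and chemokines 6 were higher, among them TSLP (2.88 ± 0.28), IL23A (1.63 ± 0.19), IL32 (1.22 ± 0.16) and CCL20 (2.08 ± 0.31). Of 14 IkB kinases and upstream adaptors 4 were higher and 2 lower, and the median of that list was 0.03. All 7 mRNA decay factors passed, 3 as higher and 4 as lower, with a median of -0.34. Of 8 STAT3 pathway genes 4 were higher and 1 lower, and of 6 receptors and antagonists 1 was higher and 2 were lower. Basal epithelial markers were also higher in B, 9 of 12, with a median B minus C of 0.55 with BRCA2 siRNA and 0.54 with control siRNA. Of the 2 endothelial markers tested KDR was lower in B, by -1.11 ± 0.17, and TEK was higher. The part of these other differences between B and C in the cytokine gap was not tested.

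**Figure D4:**
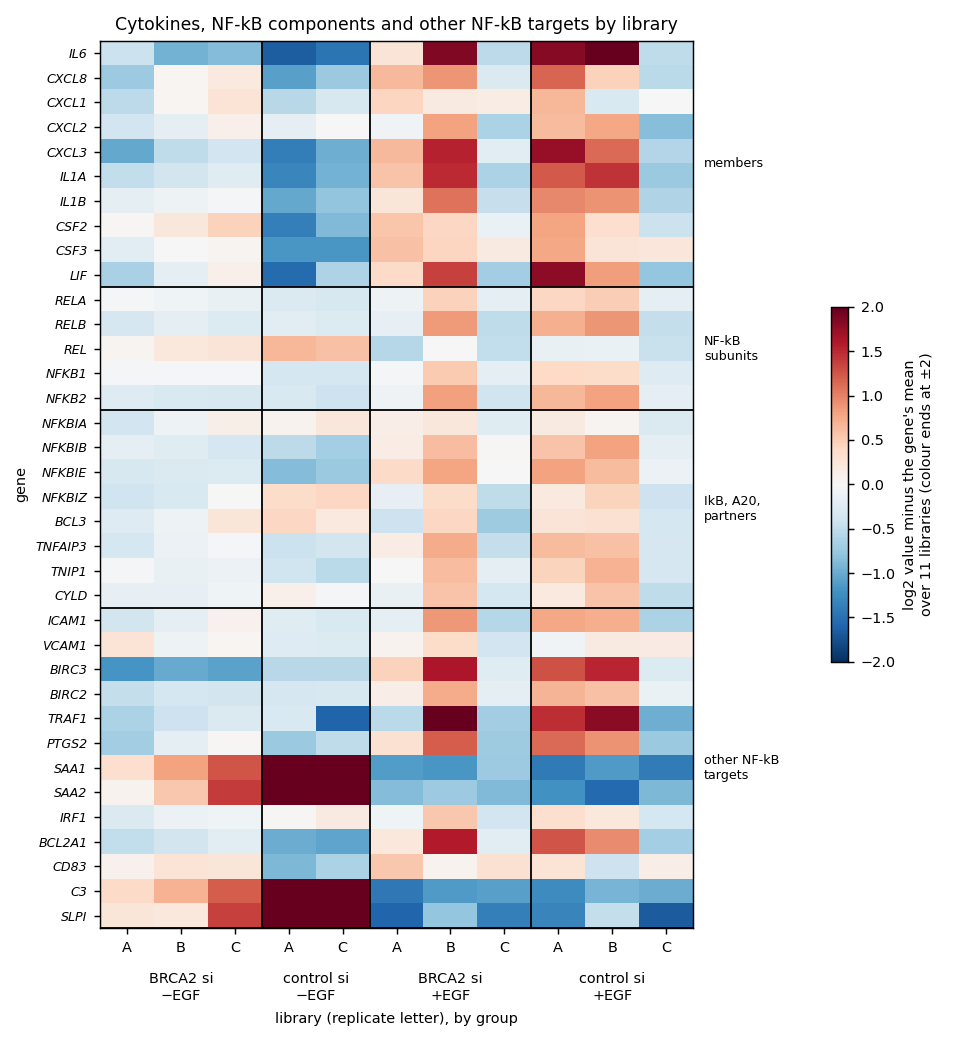
Log2 value minus the gene's own mean over 11 libraries (colour, ending at ±2) for the 10 cytokine and chemokine genes, 5 NF-kB subunits, 8 genes of the IkB and A20 group and 13 other NF-kB targets (rows). Columns are libraries grouped by siRNA and EGF. With EGF, replicates A and B of control siRNA and B of BRCA2 siRNA are high for most rows, whereas SAA1, SAA2, C3 and SLPI are high in the libraries without EGF.

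Other NF-kB targets moved in both directions on EGF withdrawal, as did all genes tested. Of these, 13.4% were higher and 13.8% lower with BRCA2 siRNA, and 24.7% were higher and 26.1% lower with control siRNA. With BRCA2 siRNA 4 of 13 other NF-kB targets rose, SLPI, SAA1, SAA2 and C3, by 1.5 to 1.97 on the log2 scale. BIRC3 changed by -1.69 ± 0.47. With control siRNA the same 4 targets rose: SLPI, a protease inhibitor of secretions, by 3.83 ± 0.39, the acute-phase proteins SAA1 and SAA2 by 3.61 ± 0.22 and 3.29 ± 0.32, and complement C3 by 3.33 ± 0.20 (adjusted p from 7.05e-06 to 3.14e-05). SAA1 had 10.75, 11.21 and 11.67 in BRCA2 siRNA without EGF, 12.62 and 12.79 in control siRNA without EGF, 9.30, 9.25 and 9.69 in BRCA2 siRNA with EGF, and 9.0, 9.28 and 9.02 in control siRNA with EGF. Its replicates with EGF did not show the gap between B and C, at -0.09 ± 0.14. The 4 targets that fell with control siRNA, named after their values were seen, were BIRC3 (-1.40 ± 0.52), BCL2A1 (-1.53 ± 0.56), CD83 (-0.76 ± 0.20) and BIRC2 (-0.71 ± 0.26).

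Some receptors and an antagonist of these cytokines rose without EGF. Of all genes tested, 13.4% were higher and 13.8% lower with BRCA2 siRNA, and 24.7% were higher and 26.1% lower with control siRNA. Under each siRNA 3 of the 6 genes tested rose and none fell. With BRCA2 siRNA they were IL1RN (1.49 ± 0.31), the antagonist that blocks IL1A and IL1B at their receptor, IL1R1 (0.74 ± 0.14) and IL6R (0.34 ± 0.10). With control siRNA IL1RN rose by 3.27 ± 0.35 (adjusted p = 4.04e-05), the receptor IL1R1 by 1.13 ± 0.16 and the IL6 receptor chain IL6R by 0.88 ± 0.11. IL1RN was 4.28, 4.01 and 5.39 in BRCA2 siRNA without EGF, 6.15 and 6.67 in control siRNA without EGF, 2.78, 3.41 and 3.02 in BRCA2 siRNA with EGF, and 3.20, 3.18 and 3.04 in control siRNA with EGF. All libraries with EGF were near the filter value of 3.32. Of 8 genes of the STAT3 pathway used by IL6 and LIF, PIM1 and STAT3 rose and SOCS3 and JAK2 fell with control siRNA. PIM1, a kinase, changed by 1.92 ± 0.25 and SOCS3, the feedback inhibitor, by -0.90 ± 0.14.

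Within the NF-kB module itself, withdrawal with control siRNA raised only REL of the 5 subunits (0.86 ± 0.16, adjusted p = 0.00116) and lowered 3 of 8 genes of the IkB and A20 group, NFKBIE by -1.24 ± 0.26, NFKBIB by -1.01 ± 0.25 and TNIP1 by -0.73 ± 0.27. Of 14 IkB kinases and adaptors 7 fell and 2 rose, with IRAK1, which carries the IL1 receptor signal, at -1.08 ± 0.11, the kinase CHUK at -0.74 ± 0.09 and MAP3K14, the kinase of the non-canonical route, at 1.46 ± 0.22. Of 13 other cytokines and chemokines 3 rose and 2 fell. CSF1, the macrophage factor, rose by 1.34 ± 0.13 and the mucosal chemokine CCL28 by 1.69 ± 0.27, opposite to CSF2 and CSF3. Of 7 mRNA decay factors 1 rose, ZFP36 by 0.82 ± 0.25, and 1 fell, ZFP36L1 by -0.40 ± 0.12. Of all genes tested, 24.7% were higher and 26.1% lower. With BRCA2 siRNA, where 13.4% of all genes were higher and 13.8% lower, REL again rose alone of the subunits (0.52 ± 0.14). In the IkB and A20 group only NFKBIE fell (-0.69 ± 0.23). There 3 of 14 kinases and adaptors fell and 2 rose, 2 of 13 other cytokines and chemokines rose and none fell, and no decay factor passed. Markers of other cell types moved as well: 8 of 9 fibroblast markers tested rose with control siRNA, and the log2 of their summed value ran from 12.47 to 13.17 in BRCA2 siRNA without EGF, 13.46 to 13.56 in control siRNA without EGF, 11.50 to 11.58 in BRCA2 siRNA with EGF and 11.35 to 11.63 in control siRNA with EGF. The leukocyte sum ran from 5.64 to 5.79 in BRCA2 siRNA without EGF, 6.00 to 6.40 in control siRNA without EGF, 5.09 to 5.46 in BRCA2 siRNA with EGF and 5.36 to 5.51 in control siRNA with EGF, and CD14 and CSF1R were its only markers above the filter. The endothelial sum ran from 8.17 to 8.78 in BRCA2 siRNA without EGF, 10.18 to 10.42 in control siRNA without EGF, 7.73 to 8.50 in BRCA2 siRNA with EGF and 7.65 to 8.66 in control siRNA with EGF. Of its 2 markers tested, the VEGF receptor KDR rose with control siRNA (2.51 ± 0.36, adjusted p = 0.000223) and TEK fell (-1.13 ± 0.25), and neither passed with BRCA2 siRNA, while CDH5 and CLDN5 were below the filter value in every library. Of 12 basal epithelial markers 5 rose and 2 fell under each siRNA, with the basal keratin KRT14 at 0.84 ± 0.10 with BRCA2 siRNA and 1.37 ± 0.11 with control siRNA. The part of these markers in the cytokine differences was not tested.

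Without EGF, the libraries labelled BRCA2 siRNA held more CSF2 and CSF3 mRNA than control libraries. CSF2 was higher by 1.36 ± 0.32, or 2.57-fold (limma, n = 3 and 2, adjusted p = 0.0137), and CSF3 by 1.11 ± 0.17, or 2.16-fold (adjusted p = 0.00239). These were the 2 of 10 genes that passed, none was lower, and 11.2% of all genes were higher and 9.36% lower. The other differences were 0.83 ± 0.69 for LIF, 0.80 ± 0.78 for IL6, 0.79 ± 0.46 for IL1B, 0.76 ± 0.63 for IL1A, 0.75 ± 0.46 for CXCL8, 0.54 ± 0.60 for CXCL3, 0.37 ± 0.27 for CXCL1 and -0.07 ± 0.46 for CXCL2, with adjusted p from 0.249 to 0.937. These errors rest on a spread shared with the groups with EGF, in which the members varied more. A fit of the compared groups alone called 8 of the 10 genes higher and none lower, where 3915 of 17945 genes were higher and 2861 lower. In 6 of 10 genes (IL6, CXCL8, IL1A, IL1B, CSF2 and CSF3) all 3 BRCA2 siRNA libraries lay above both control libraries, which held for 33.2% of all genes. Within replicate A 9 genes and within replicate C all 10 were higher with BRCA2 siRNA, with medians of 0.82 and 0.72. The CSF2 call passed under 12 of 14 alternatives and the CSF3 call under 13. Without control replicate A without EGF, or with only replicates B and C, 1 control library without EGF remains. Those fits cannot decide whether the calls hold. The CSF2 difference was 1.12 without that replicate A library, and the median of the 10 genes was 0.607 with only B and C.

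Around these genes, other members of the pathway differed in both directions without EGF. IL33, an alarmin of the IL1 family, was higher with BRCA2 siRNA by 1.38 ± 0.29, the only one of 13 other cytokines and chemokines to be higher, while CXCL16 (-0.86), IL18 (-0.58) and CSF1 (-0.42) were lower. IL1RN (-1.85 ± 0.35, adjusted p = 0.00578) and IL6R (-0.60 ± 0.11) were lower, 2 of the 6 receptors and antagonists tested. Of 13 other NF-kB targets 4 were lower, SLPI (-2.08), C3 (-1.51), SAA1 (-1.5) and SAA2 (-1.39), and 1 was higher, CD83 (0.97 ± 0.20). None of the 5 subunits or the 8 genes of the IkB and A20 group passed, and 4 of 14 kinases and adaptors were higher, led by IRAK1 (0.76 ± 0.11). Of the decay factors HNRNPD and KHSRP were higher by 0.58 and 0.54 and ZFP36 was lower (-0.86). Fibroblast markers were lower for 4 of 9 tested in the same comparison, CD14 was lower (-1.04 ± 0.31), and KDR was lower (-1.89 ± 0.36). Their part in the cytokine differences was not tested.

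With EGF no difference between BRCA2 siRNA and control siRNA passed for any of these genes, none at an unadjusted p under 0.05. Over all genes 0.00557% were lower, which is 1 gene, and 0% higher. The differences ran from -0.72 ± 0.70 for IL6 to 0.13 ± 0.24 for CXCL1, all with an adjusted p of 0.999, and the groups overlapped for all 10 genes. Standard errors ran from 0.15 for CSF3 to 0.70 for IL6, and changes larger than these could also be missed. IL12A, a cytokine outside the 10 genes, did not pass at -0.54 ± 0.22 (limma, adjusted p = 0.999). The model does not pair libraries by letter, so its errors include the gap between replicates B and C. IL1A had a standard error of 0.56, and its differences were -0.67, 0.04 and 0.11 within replicates A, B and C. With a replicate block 0 members were called as well. Direction differed between replicates. Within replicate A all 10 genes were lower with BRCA2 siRNA (median -0.69), within replicate B 9 were higher (median 0.18) and within replicate C 8 were higher (median 0.15).

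The interaction, the withdrawal difference under BRCA2 siRNA less the one under control siRNA, passed for CSF3 alone, at 1.13 ± 0.23 (limma, adjusted p = 0.0307). All 10 estimates were positive, with a median of 0.92 against 0.02 over all genes, and 1.38% of all genes were called higher and 1.93% lower. The estimate for CSF2 was 1.31 ± 0.43 (unadjusted p = 0.0105, adjusted p = 0.108) and for IL6 1.52 ± 1.04 (adjusted p = 0.427). For the 9 genes other than CSF3 the withdrawal differences under BRCA2 and control siRNA were not shown to differ. The CSF3 call held under 12 of 20 alternatives, among them 5 fits that each left out 1 library of a group with 3. Those 5 left out BRCA2 siRNA C without EGF, BRCA2 siRNA A or B with EGF, or control B or C with EGF. They called 48 to 855 of all 17945 genes higher. The call ended without BRCA2 siRNA A or B without EGF, BRCA2 siRNA C with EGF or control A with EGF. Those fits called 0 to 15 of all genes higher. Without control A or C without EGF, 1 library remains in that group. The members' median was then 0.696 without A and 1.071 without C. Among the pathway lists SAA1 (-1.81 ± 0.30), SAA2 (-1.79 ± 0.43) and C3 (-1.36 ± 0.27) passed in the other direction, their rise on withdrawal being smaller with BRCA2 siRNA, and IRAK1 (0.76 ± 0.15) passed as higher.

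Across the 11 libraries the members followed each other to different degrees. The mean of the 10 genes, each centred on its own mean, was highest in control A with EGF (1.16) and lowest in control A without EGF (-1.12). Pearson's r to that mean was 0.98 for IL1B, IL1A, CXCL3 and LIF, 0.97 for CXCL8, 0.93 for IL6, 0.86 for CSF2, 0.82 for CSF3, 0.77 for CXCL2 and 0.65 for CXCL1, as a description in which each gene is itself part of the mean. The genes outside the group whose pattern was most like it were FAM133B (r = 0.995), ZNF697 (0.99), EREG and HBEGF (0.985 each) and ZNF562 (0.984) over the same 11 libraries. EREG and HBEGF encode ligands of the EGF receptor family.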

How the data were processed

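RNA sequencing values of 11 hTert-HME1 libraries in 4 groups were used. The authors deposited a table of log2 values. The sources used here do not give its transform, read counter or annotation, and it holds no counts. The submitters' processing notes name hg19, TopHat2 2.0.11, DESeq2 and limma. In the deposited log2 values the mean of the 4 replicate A libraries equals that of the 7 B and C libraries in each gene (largest difference 7.2e-09). Differences within A are untouched by that centring, but those between A and B or C are not.

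Symbols were matched for 37585 of 40460 genes (92.9%). A linear model of the 4 groups (limma 3.58.1, R 4.3.3, empirical Bayes with trend, 7 residual degrees of freedom) was fitted to 17945 genes, with Benjamini-Hochberg adjustment over all of them, a threshold of 0.05 and two-sided tests. The centring of replicate A was not counted in these degrees of freedom, so p-values can be too small. The method was tested on simulated data with independent noise in each library. That simulation held neither the centring of replicate A nor deviations shared by a letter, so it cannot check their effect on the p-values. Errors after ± are moderated standard errors. The comparisons share libraries. The members, the 13 other gene lists and the contrast between replicates B and C were chosen with earlier results of these data known. All 10 members are named, and of each other list up to 4 genes with the smallest p, except where stated. Promoters come from RefSeq (GRCh38.p14), and coding and UTR sequences from GENCODE transcripts of GRCh38.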

Additional observations from a re-analysis of the deposited data

Results flagged for a closer look

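CSF3 differed between the siRNA groups in its response to EGF withdrawal. Its withdrawal difference was -0.45 ± 0.15 on the log2 scale with BRCA2 siRNA and -1.58 ± 0.17 with control siRNA, and the test of the difference itself gave 1.13 ± 0.23 (limma interaction, adjusted p = 0.0307). The 3 BRCA2 siRNA libraries without EGF lay between 10.16 and 10.43, against 9.20 in both control libraries without EGF. Over the 20 alternatives the estimate ran from 0.96 to 1.23 and the adjusted p from 0.0152 to 0.842.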

How the results depend on the processing

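No value of a member that had passed changed sign under an alternative. Of 850 values under alternatives, 701 kept their direction and side of the threshold, 73 no longer passed, 23 passed newly, and 53 that had not passed changed sign, 33 of them for BRCA2 against control siRNA with EGF. That comparison called 0 members under every alternative. For BRCA2 siRNA without EGF, the 2 members called became 8 with the compared groups alone, where 3915 of 17945 genes were called higher and 2861 lower. With 1 BRCA2 siRNA library left out the count stayed 2, where 857 to 1885 genes were called higher. With only replicates B and C, 1 control library without EGF remains, and the members' median was 0.607. It was 0.579 without control A and 0.91 without control C. For withdrawal with BRCA2 siRNA, the 1 became 7 with both C libraries with EGF aside, where 3569 of 17945 genes were called lower. It became 2 with the compared groups alone, where 2557 were. It became 0 with no filter, where 1786 of 40460 genes were called lower. It was also 0 with no trend, a term for replicate A, quantile normalization or only A and C. Leaving a library out gave 0 to 2. With only B and C, 1 control library without EGF remains, and the members' median was -0.329. In that comparison the main fit called 2474 of 17945 genes lower, and fits with a library left out called 1106 to 2489. No trend, a term for replicate A, quantile normalization or only A and C called 1532 to 2137. For withdrawal with control siRNA, the 7 became 4 with the compared groups alone, where 3894 genes were called lower. They became 3 to 8 with a library with EGF left out, where 3714 to 5230 were. With only B and C, 1 control library without EGF remains, and the members' median was -0.884. For the interaction, the 1 became 2 with both C libraries aside, where 526 of 17945 genes were called higher. It became 0 with only A and C, where 0 of all genes were called. Leaving out a library of a group with 3 gave 0 to 2, where 0 to 855 genes were called higher. Where 1 control library without EGF remains, the members' median was 0.535 with only B and C, 0.696 without control A and 1.071 without control C. For B minus C, the 8 became 0 with all 11 libraries (members' median 0.86) and 0 with no filter, and neither setting called any gene. The causes were not tested. Over all genes 2 of 15 same-letter pairs of libraries had deviations that correlated above 0.1, and the letters were not used to pair the libraries as a whole. Those pairs were B with B (r = 0.695) and C with C (r = 0.7) across the siRNAs with EGF, and not every library correlated best with one of its own letter. The centring of replicate A constrains the deviations of the A libraries, whose pairs with each other ran from -0.366 to -0.118. For replicate A this check therefore cannot decide whether the letters pair libraries. With a replicate block, the counts were 0 for BRCA2 siRNA with EGF, 2 without EGF, 2 for withdrawal with BRCA2 siRNA, 7 for withdrawal with control siRNA, and 1 for the interaction. Of all 17945 genes, that setting called 0 for BRCA2 siRNA with EGF and 2387 higher without EGF. It called 2911 lower for withdrawal with BRCA2 siRNA, 4723 lower with control siRNA and 442 higher for the interaction. The settings with only A and C or with both C libraries aside were chosen after seeing the data. Without counts, what depth limits cannot be stated.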
